A study of Mus musculus with 13 samples.

Results

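MHC class I antigen presentation was followed through 9 mouse genes named by symbol: the class I heavy chains H2-K1 and H2-D1, their light chain B2m, the peptide transporter subunits Tap1 and Tap2, the loading chaperone Tapbp, the immunoproteasome subunits Psmb8 and Psmb9, and the transactivator Nlrc5. Each symbol matched 1 Ensembl identifier, so the set is 9 of the 48709 gene rows in every count table. The rule reads symbols only, and all 9 passed the filter on low counts.

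The libraries were RNA-seq of motoneurons cut by laser from cresyl violet-stained lumbar cord sections of SOD1-G93A mice, with 500 cells pooled per animal at 65 days of age. SOD1-G93A mice carry a mutant human SOD1 transgene and are a model of amyotrophic lateral sclerosis, and every group here carries it, so no healthy animals enter the comparisons. The AAV-miR SOD1 group (4 libraries) had received, on postnatal day 2 and into the cerebral ventricles, an adeno-associated virus that makes an artificial microRNA against human SOD1 in astrocytes. The AAV-miR ctrl group (5 libraries) had received the control vector by the same route, and the non-injected group (4 libraries) were littermates with no injection. The vector acts in astrocytes while the RNA came from motoneurons, and the cord was frozen inside its vertebrae. No row of the tables is human SOD1, so the target of the microRNA could not be used to check the labels.

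Class I molecules present short peptides of cytosolic proteins at the cell surface, where CD8 T cells and natural killer cells read them. The proteasome cuts the peptides, TAP carries them into the endoplasmic reticulum, and tapasin holds the empty heavy chain with B2m close to the transporter until a peptide is bound. Interferons switch on the whole route together, through IRF and STAT factors and through NLRC5. Neurons make little class I when at rest, microglia and endothelial cells make more, and motoneurons are among the neurons in which class I has been described.

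Positions are in GRCm38, the build named in the submitters' processing notes. Tapbp (chr17:33915899-33929292), H2-K1 (chr17:33996017-34000347), Psmb9 (chr17:34181987-34187764), Tap1 (chr17:34187553-34197225), Psmb8 (chr17:34197721-34201454), Tap2 (chr17:34203527-34216321) and H2-D1 (chr17:35262730-35267499) sit in the mouse MHC, and B2m (chr2:122147686-122153083) lies apart from it. Nlrc5 is at chr8:94434356-94527272. H2-K1 and Psmb9 are on the minus strand and the others on the plus strand.

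The sequences before RefSeq start sites are shown because promoters of class I genes are described as sharing elements. Whether such elements bear on the levels in these libraries was not tested. RefSeq (GRCm38.p6) promoter entries matched 7 of the 9 genes, while Tap2 and Nlrc5 had no entry. The 250 bases before the start of H2-K1 (chr17:34000348-34000597, minus strand) and of B2m (chr2:122147437-122147686, plus strand) are given 5′ to 3′, with capitals for matches to 4 short motifs on either strand: AANNGAAA (the IRF core), GGGATTCCC (kappa B), TGACG (a CRE half-site) and CCAAT.
H2-K1: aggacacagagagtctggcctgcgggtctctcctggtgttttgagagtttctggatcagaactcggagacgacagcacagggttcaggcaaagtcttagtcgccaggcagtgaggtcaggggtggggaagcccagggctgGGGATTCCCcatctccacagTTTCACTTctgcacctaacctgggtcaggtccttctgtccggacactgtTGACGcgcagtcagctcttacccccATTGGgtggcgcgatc
B2m: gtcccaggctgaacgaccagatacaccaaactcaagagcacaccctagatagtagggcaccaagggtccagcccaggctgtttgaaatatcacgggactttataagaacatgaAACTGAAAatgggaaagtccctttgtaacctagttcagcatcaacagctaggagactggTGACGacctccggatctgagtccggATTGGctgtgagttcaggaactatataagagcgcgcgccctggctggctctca
The kappa B match of H2-K1 and its IRF match lie in a stretch of 28 bases (chr17:34000430-34000457) that H2-D1 also holds (chr17:35262924-35262951), and the capitals here mark these 2 matches.
H2-K1 stretch: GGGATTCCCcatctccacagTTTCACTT
H2-D1 stretch: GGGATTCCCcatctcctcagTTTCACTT
The stretches differ at a single base, A17T from H2-K1 to H2-D1 with positions counted from 1 at the 5′ end, and are 96.4% identical.

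Among the 7 promoters, the kappa B letters were found in 2 (H2-K1 and H2-D1), against 0.301% of all 32851 RefSeq promoters in windows of the same length. The IRF core was in 3 (H2-K1, H2-D1 and B2m), against 21.3% of all promoters. TGACG was in 5 of 7, against 17.8%, and CCAAT in 6 of 7, against 33.8%. Psmb8 held none of the 4 motifs in this window. The windows follow RefSeq starts, and some lie inside the gene spans given above. These are the windows of Psmb8 (chr17:34197945-34198194), Tapbp (chr17:33919228-33919477), H2-D1 (chr17:35262844-35263093) and Psmb9 (chr17:34187331-34187580). Motifs before other starts of these genes would be missed. The windows of Tap1 and Psmb9 are largely the same DNA read in opposite directions, so their matches are not separate. The kappa B and IRF matches of H2-K1 and H2-D1 lie in the nearly identical stretch given above and are not separate either. The shares of all promoters are therefore descriptions and no test of enrichment. These are matches of letters and not measured binding.

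The libraries held 13.9 to 37.4 megacounts assigned to genes, and 3 counts correspond to 0.0802 to 0.216 CPM (counts per megacount) in a library. All 10 motoneuron markers were counted in the samples, among them Slc18a3, the vesicular acetylcholine transporter, with group medians of 187, 341 and 534 CPM in AAV-miR SOD1, AAV-miR ctrl and non-injected libraries. In 2 libraries the column header named another group than the label: AAV-miR ctrl replicate 3 carried a header of the uninjected animals, and non-injected replicate 3 a header of the control vector. The labels were followed, and results are also given with the 2 libraries exchanged or left out. AAV-miR ctrl replicate 1 stood apart from the other 4 AAV-miR ctrl libraries, above all of them in 9 of the 9 genes. Non-injected replicate 3, a library with a contrary header, was the lowest of the 13 in 9 of 9. Values below are CPM scaled by TMM, in order of replicate number: 1, 2, 3 and 4 for AAV-miR SOD1, 1, 3, 4, 5 and 6 for AAV-miR ctrl, and 2, 3, 5 and 6 for non-injected.

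In each of the 9 genes the mean log2 CPM was highest in AAV-miR SOD1, intermediate in AAV-miR ctrl and lowest in non-injected mice. By median CPM AAV-miR SOD1 was again highest in all 9, but the control groups changed order in some genes. The AAV-miR ctrl median was below the non-injected one for Tapbp (122 against 135 CPM), Tap2 (31.1 against 34) and Nlrc5 (1.25 against 1.34). It was above it for the other members. The control means also include the high and the low library described above. No member passed the adjusted test in any comparison of the 13 libraries. Per kilobase of exon, B2m had the highest median over the 13 libraries, 1051 CPM per kb, followed by H2-D1 with 402, H2-K1 with 117, Tapbp with 38.7, Psmb8 with 20.9, Psmb9 with 12.2, Tap2 with 8.83, Tap1 with 4.73 and Nlrc5 with 0.418. Neighbours in this order overlapped in their ranges over libraries, for example Tap2 (4.35 to 11.6 CPM per kb) and Tap1 (2.87 to 12.3), except for Tap1 and Nlrc5. Nlrc5 reached at most 1.03 CPM per kb, below the lowest Tap1 value.

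**Figure D1:**
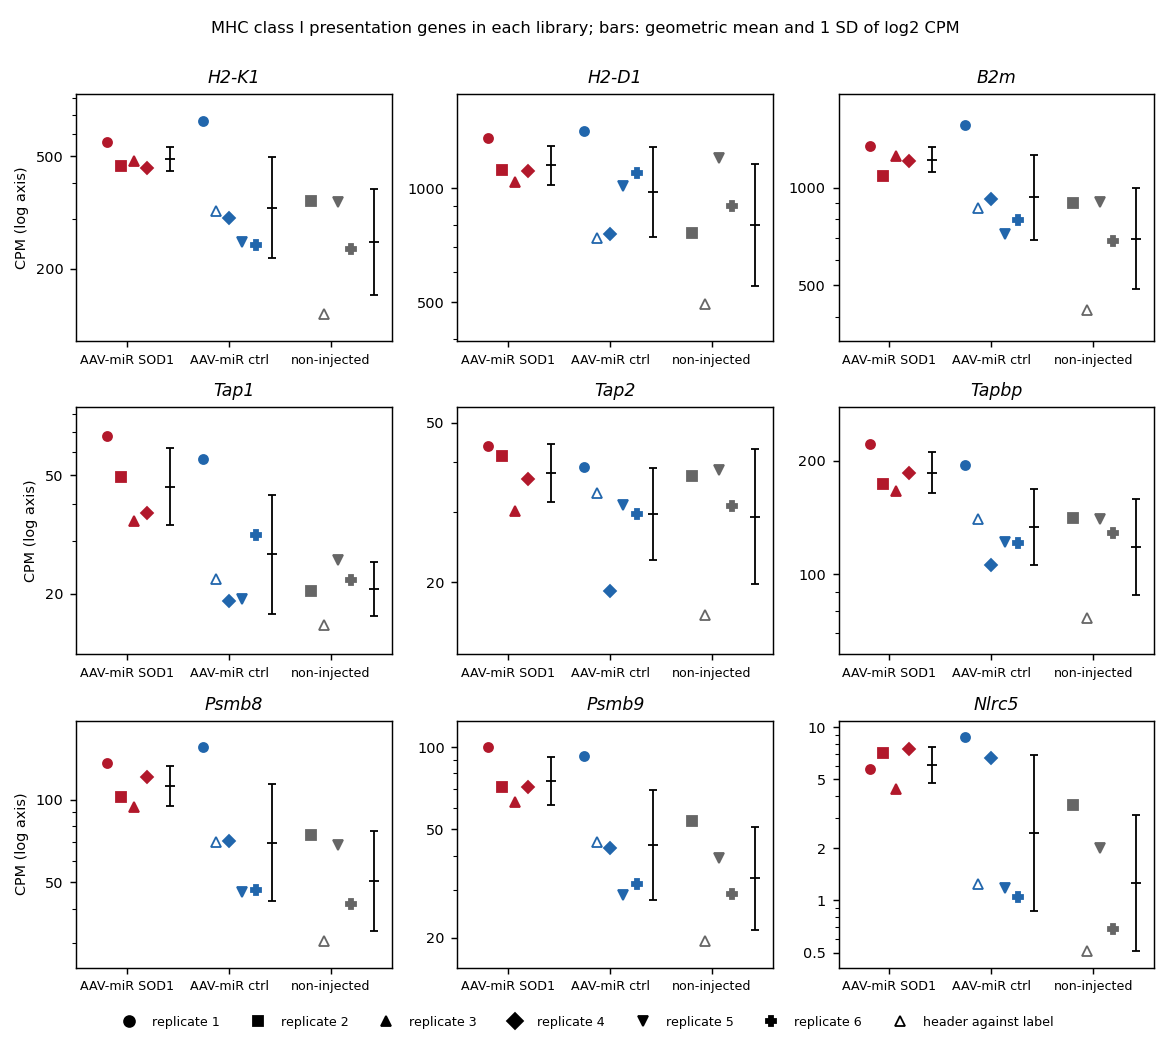
CPM of each of the 9 genes in the 13 libraries (log axes, 1 panel per gene), with points for libraries and bars for the geometric mean and 1 SD of log2 CPM in each group. Open triangles are the 2 libraries with contrary headers. AAV-miR ctrl replicate 1 sits above the other 4 libraries of its group in all 9 panels, and non-injected replicate 3 is the lowest point in all 9.

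H2-K1 is the classical heavy chain of the K locus. It was at 559, 462, 482 and 452 CPM in the AAV-miR SOD1 libraries. It was at 662, 319, 303, 249 and 242 CPM with the control vector and at 347, 139, 343 and 234 CPM in non-injected mice. Every AAV-miR SOD1 library was above every non-injected one and above 4 of the 5 control-vector libraries, while AAV-miR ctrl replicate 1 was the highest of all 13. In the edgeR quasi-likelihood test its difference from the control vector was 0.46 ± 0.33 on the log2 scale (± SE, adjusted p = 0.529) and that from non-injected mice 0.88 ± 0.35 (adjusted p = 0.18, unadjusted p = 0.0239).

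H2-D1, the classical heavy chain of the D locus, was at 1359, 1113, 1036 and 1107 CPM in AAV-miR SOD1 libraries. The AAV-miR ctrl libraries had 1415, 737, 758, 1015 and 1099 CPM and the non-injected ones 762, 495, 1202 and 895 CPM. The groups overlapped on both sides, with non-injected replicate 5 above 3 of the 4 AAV-miR SOD1 libraries. Its log2 fold changes were 0.20 ± 0.28 against AAV-miR ctrl (adjusted p = 0.779) and 0.46 ± 0.29 against non-injected (adjusted p = 0.387). Of 50-base windows in its longest transcript, 14.3% occur in transcripts of other genes, chiefly H2-Q genes, and 4.64% of 100-base windows do. The shares for H2-K1 were 8.79% and 0%. Read length and the handling of shared reads are not given in the sources used here, so the H2-D1 count in particular may hold or lack reads of its relatives.

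B2m, the light chain that all classical class I molecules need, was at 1347, 1089, 1254 and 1208 CPM in AAV-miR SOD1 libraries. It was at 1557, 868, 923, 719 and 794 CPM with the control vector and at 898, 421, 904 and 687 CPM without injection. As for H2-K1, only AAV-miR ctrl replicate 1 among the 9 control libraries reached the AAV-miR SOD1 range. B2m had a log2 fold change of 0.33 ± 0.28 against AAV-miR ctrl (adjusted p = 0.609) and 0.75 ± 0.30 against non-injected (adjusted p = 0.18, unadjusted p = 0.024). No 50-base window of the B2m transcript occurs in another gene.

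Tap1, the transporter subunit that shares its start region with Psmb9, had 67.5, 49.4, 35.2 and 37.3 CPM in AAV-miR SOD1 libraries. It had 56.5, 22.5, 19, 19.3 and 31.5 CPM with the control vector and 20.4, 15.7, 25.9 and 22.3 CPM without injection. All 4 AAV-miR SOD1 libraries were above all 4 non-injected ones and above every control-vector library but replicate 1. It had the smallest adjusted p of the 9 genes in the comparisons of AAV-miR SOD1 with each control group. Its log2 fold change was 0.67 ± 0.32 for the control vector (adjusted p = 0.361) and 1.17 ± 0.35 against non-injected, a 2.24-fold difference (adjusted p = 0.14, unadjusted p = 0.00465). With DESeq2 the second value was 1.22 ± 0.37 with an adjusted p of 0.0302, and over 23 alternatives that adjusted p ranged from 0.0302 to 0.594. Tap1 and Psmb9 share 212 bases of exon on opposite strands, 3.87% of the Tap1 exons, and whether the counting used strand is not given in the sources used here.

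Tap2, the partner subunit, had 43.7, 41.2, 30.1 and 36.1 CPM in AAV-miR SOD1 libraries. It had 38.7, 33.4, 19, 31.1 and 29.6 CPM in AAV-miR ctrl and 36.9, 16.5, 38.1 and 31 CPM in non-injected libraries. The 3 groups overlapped broadly, and the spread over all libraries was the narrowest of the 9 genes, 2.66-fold from lowest to highest. Its log2 fold changes were 0.31 ± 0.26 against AAV-miR ctrl (adjusted p = 0.602) and 0.30 ± 0.27 against non-injected (adjusted p = 0.561).

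Tapbp, which encodes tapasin, was at 222, 174, 167 and 186 CPM in AAV-miR SOD1 libraries. It was at 195, 140, 106, 122 and 121 CPM in AAV-miR ctrl and at 141, 76.8, 140 and 129 CPM in non-injected libraries. The AAV-miR SOD1 libraries again lay above all controls except AAV-miR ctrl replicate 1. On the log2 scale Tapbp was higher by 0.45 ± 0.22 than with the control vector (adjusted p = 0.37) and by 0.62 ± 0.24 than in non-injected mice (adjusted p = 0.171, unadjusted p = 0.0206). An antisense gene, Gm19412, covers 24.9% of the Tapbp exons and had 24 counts over all libraries. Zbtb22, on the same strand, shares 149 bases with them, 4.11% of the Tapbp exons, and had 7192 counts.

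Psmb8, the interferon-induced proteasome subunit that takes the place of Psmb5, was at 136, 102, 93.6 and 121 CPM in AAV-miR SOD1 libraries. It was at 155, 70.2, 70.6, 46 and 46.7 CPM in AAV-miR ctrl and at 74.5, 30.6, 68.5 and 41.6 CPM in non-injected libraries. AAV-miR ctrl replicate 1 was the highest of the 13, and the other 8 control libraries were all below the AAV-miR SOD1 libraries. The difference on the log2 scale was 0.54 ± 0.35 from AAV-miR ctrl (adjusted p = 0.492) and 1.07 ± 0.38 from non-injected libraries (adjusted p = 0.152, unadjusted p = 0.0133).

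Psmb9, which takes the place of Psmb6, was at 100, 71.2, 62.6 and 71.3 CPM in AAV-miR SOD1 libraries. It was at 92.7, 44.8, 42.7, 28.6 and 31.4 CPM in AAV-miR ctrl and at 53.6, 19.4, 39.3 and 29 CPM in non-injected libraries. No control library other than AAV-miR ctrl replicate 1 reached the AAV-miR SOD1 range. The order of libraries followed that of Psmb8 closely, with a Pearson r of 0.99 between the 2 genes over the 13 libraries. Psmb9 had a log2 fold change of 0.67 ± 0.35 against AAV-miR ctrl (adjusted p = 0.391) and 1.11 ± 0.37 against non-injected (adjusted p = 0.147, unadjusted p = 0.0101).

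Nlrc5, the factor that drives class I genes from their promoters, was the scarcest and the most variable member. It was at 5.74, 7.15, 4.41 and 7.52 CPM in AAV-miR SOD1 libraries, from 93 to 149 reads. It was at 8.75, 1.25, 6.67, 1.18 and 1.05 CPM in AAV-miR ctrl and at 3.55, 0.512, 2 and 0.686 CPM in non-injected libraries, where the lowest value rests on 9 reads. The AAV-miR SOD1 libraries were all above the non-injected ones, while AAV-miR ctrl replicates 1 and 4 lay within or above the AAV-miR SOD1 range. The highest library was 17.1-fold above the lowest. With this spread its log2 fold change was 0.72 ± 0.70 for the control-vector group (adjusted p = 0.66) and 1.87 ± 0.77 against non-injected (adjusted p = 0.189, unadjusted p = 0.0281).

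Against AAV-miR ctrl, which differs from the treated group by the microRNA and not by the injection, all 9 genes had a log2 fold change above 0, with a median of 0.46. Over all 17403 genes tested 46.3% were above 0 and the median was -0.04. At an unadjusted p under 0.05 0 of the 9 genes were higher, against 5.99% of all genes, and 0 passed the adjusted test in edgeR, DESeq2 or limma-voom, against 0.00% of all genes in edgeR. DESeq2 placed 2 members at an unadjusted p under 0.05, where 7.50% of its genes were higher, and limma-voom 6, where 11.5% were. No member had AAV-miR SOD1 libraries all above the AAV-miR ctrl libraries, as 1.27% of all genes did. Leaving out 1 library brought the count at an unadjusted p under 0.05 from 0 to 2 (without AAV-miR SOD1 replicate 3 or without non-injected replicate 2), to 1 (without AAV-miR SOD1 replicate 4 or non-injected replicate 3) or to 6 (without AAV-miR ctrl replicate 1, where 11.6% of genes were higher). For the other refits the share of all genes is not given. Their counts show only how the result depends on single libraries.

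Against non-injected mice, which differ by injection, vector and microRNA together, all 9 genes were again above 0, with a median log2 fold change of 0.88. Of all genes 44.9% were above 0, with a median of -0.09. At an unadjusted p under 0.05 7 of the 9 were higher (H2-K1, B2m, Tap1, Tapbp, Psmb8, Psmb9 and Nlrc5), where 9.36% of all genes were. The same 7 had no overlap between the groups, as 5.90% of all genes did. None of the 9 passed the adjusted test in edgeR, where 0.00% of all genes did. DESeq2 called 1 member, Tap1, and limma-voom 0, and the shares of all genes they called here are not given. The count of 7 fell to 3 without non-injected replicate 3 and to 4 without AAV-miR SOD1 replicate 1 or non-injected replicate 6. The share of all genes in these refits is not given, so they show only the dependence on single libraries.

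AAV-miR ctrl against non-injected mice, the comparison for injection and vector, gave 8 of 9 genes above 0, with a median log2 fold change of 0.42, where 48.0% of all genes were above 0. Nlrc5 had the largest value, 1.15 ± 0.73, and Tap2 the lowest, -0.01 ± 0.26. By edgeR 0 members were higher at an unadjusted p under 0.05, where 1.38% of all genes were, and all adjusted p-values of the members were 1 (0.00% of genes passed). No member separated the groups, as 0.299% of genes did. Without AAV-miR ctrl replicate 1 the median of the members was 0.11, and without non-injected replicate 2 the count at an unadjusted p under 0.05 was 1. The share of all genes beside that count is not given.

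Against both control groups together, the 9 genes were all above 0, with a median log2 fold change of 0.67, where 45.8% of all genes were above 0. The values ran from 0.31 ± 0.23 for Tap2 to 1.30 ± 0.61 for Nlrc5. At an unadjusted p under 0.05 the same 7 genes were higher, against 10.2% of all genes on the higher side and 12.1% on the lower side. None of the 9 passed the adjusted test in edgeR (0.00% of all genes did), with Tap1 at an adjusted p of 0.105. DESeq2 called 1 member, Tap1, where 4.36% of genes were called higher, and limma-voom with quality weights called 6 (H2-K1, Tap1, Tapbp, Psmb8, Psmb9 and Nlrc5), where 5.37% of genes were. No member separated the AAV-miR SOD1 libraries from all 9 controls, as 0.592% of genes did. The count of 7 fell to 1 without AAV-miR SOD1 replicate 1 and to 4 without AAV-miR SOD1 replicate 2 or 4, AAV-miR ctrl replicate 5 or 6, or non-injected replicate 3 or 6. For these refits too the share of all genes is not given. This comparison shares its libraries with those before it and is no separate evidence.

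AAV-miR ctrl replicate 1 was the library that changed the comparison with the control vector most when left out, and it was singled out after its values were seen. Against the other 4 AAV-miR ctrl libraries, 6 members had an unadjusted p under 0.05 (11.6% of genes were higher), 6 did not overlap (8.22% of genes), 0 passed the adjusted test, and the median log2 fold change was 0.82. Against both control groups, 5 members rose by the adjusted test, where 5.79% of genes did. These were Tap1 with a log2 fold change of 1.10 ± 0.21 (adjusted p = 0.0203), Psmb9 with 1.08 ± 0.24 (0.0259), Psmb8 with 1.01 ± 0.23 (0.0269), H2-K1 with 0.85 ± 0.22 (0.0344) and Tapbp with 0.62 ± 0.18 (0.0444). Over 22 alternatives the adjusted p reached up to 0.437 for Tap1, 0.446 for Psmb9, 0.5 for Psmb8, 0.513 for H2-K1 and 0.45 for Tapbp. H2-D1 at 0.41 ± 0.23 and Tap2 at 0.36 ± 0.23 stayed above an unadjusted p of 0.05.

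**Figure D2:**
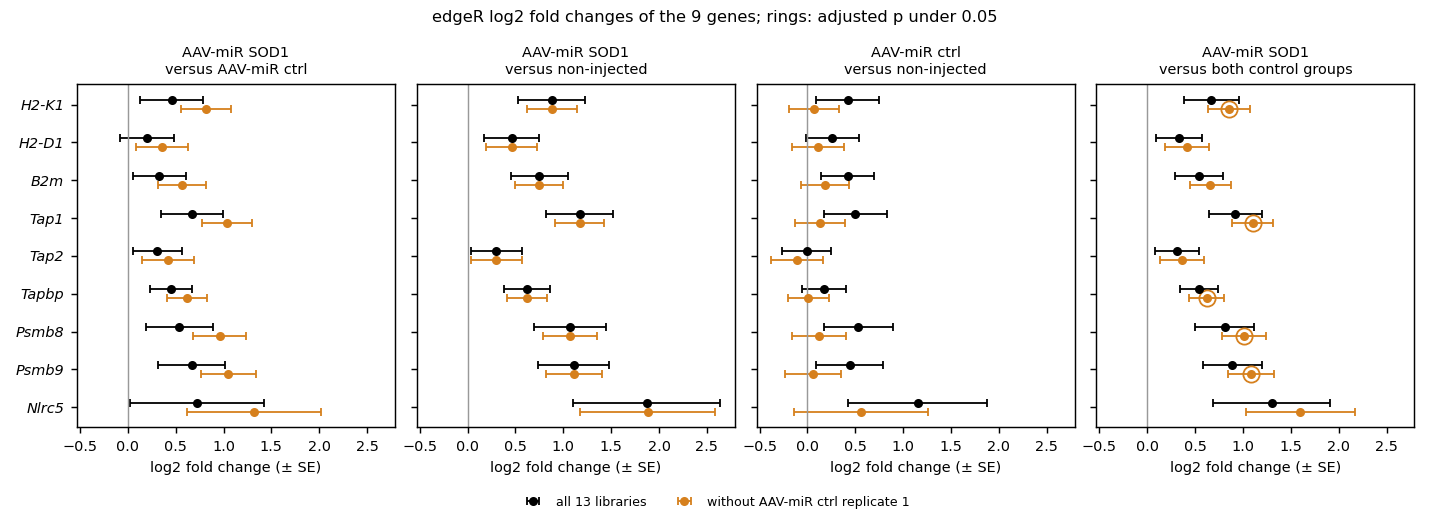
edgeR log2 fold changes (x axis) with their standard errors for the 9 genes in the 4 comparisons, from all 13 libraries (black) and without AAV-miR ctrl replicate 1 (orange). Rings mark adjusted p under 0.05, which 5 genes reach, in the comparison with both control groups without that library. Without the library, values against AAV-miR ctrl are larger and values of AAV-miR ctrl against non-injected are nearer to 0 for all genes but Tap2.

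The 2 libraries with contrary headers also weighed on the counts. With their groups exchanged as the headers have it, members at an unadjusted p under 0.05 numbered 3 for the control vector, 3 for non-injected mice and 4 for both together, where 7.64%, 7.10% and 9.91% of all genes were higher. With both left out these counts were 1, 4 and 4, where 5.81%, 7.47% and 9.84% of all genes were higher. The median log2 fold change of the members against non-injected was then 0.65 and 0.74, in place of 0.88. Libraries numbered 5 and 6, present only in the control groups, were also the deepest, from 29.7 to 37.4 megacounts, where those numbered 1 to 4 had 13.9 to 23.1 megacounts. The labels give no batch or date. Numbers 1 to 4 leave only 2 non-injected libraries, replicates 2 and 3. Replicate 3 has a contrary header and was the lowest library for all 9 genes, so the values against non-injected below rest largely on it. Among libraries numbered 1 to 4 alone, 7 members had an unadjusted p under 0.05 against non-injected (8.03% of genes were higher) and 2 against both control groups (8.01% of genes), with median log2 fold changes of 1.03 and 0.61. Against AAV-miR ctrl the count was 0 (2.45% of genes) and the median 0.25.

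The 9 genes varied together from library to library. Pearson's r between a gene's log2 CPM and the mean of the other 8 was 0.984 for H2-K1, 0.976 for Psmb8, 0.975 for Psmb9, 0.972 for B2m and 0.933 for Tapbp over the 13 libraries. It was lower for Tap1 (0.849), Nlrc5 (0.821), H2-D1 (0.759) and Tap2 (0.698). With group means removed, the values ran from 0.666 for H2-D1 and Tap2 to 0.975 for H2-K1, so the shared variation was also present inside groups. The mean centred log2 CPM of the 9 genes was 0.85 in AAV-miR ctrl replicate 1 and -0.46 to -0.13 in the rest of its group. It was -1.21 in non-injected replicate 3 and -0.56 to -0.01 in the rest of that group. How far these 2 libraries carry the values inside groups was not tested. The pairs ranged from 0.44 for Nlrc5 with Tap2 to 0.99 for H2-K1 with B2m and for Psmb8 with Psmb9. The points share libraries, depth and scaling, and the values are descriptions. Outside every list, genes among the 5 with the most similar pattern were Fxyd5 (r = 0.976), a regulator of the sodium pump, Rcc1 (0.963), an exchange factor for Ran, Cfp (0.962), which encodes the complement factor properdin, and Clic1 (0.959), a chloride channel protein.

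H2-D1 and H2-K1 parted from each other in some libraries. The ratio of H2-D1 to H2-K1 CPM was 2.43, 2.41, 2.15 and 2.45 in AAV-miR SOD1 libraries. It was 2.14, 2.31, 2.5, 4.08 and 4.54 in AAV-miR ctrl and 2.19, 3.57, 3.5 and 3.83 in non-injected libraries. The ratio was thus between 2.14 and 2.5 in 8 libraries and between 3.5 and 4.54 in the other 5, with none in between. The 5 were AAV-miR ctrl replicates 5 and 6 and non-injected replicates 3, 5 and 6. Their motoneuron markers summed to 11794 to 18350 CPM and their Slc18a3 to 482 to 746 CPM, against 5235 to 8713 and 131 to 341 CPM in the other 8. This split was made after the values were seen, 4 of the 5 libraries are also the deepest ones, and the part of motoneuron content, depth or shared reads was not tested. Between groups the log2 ratio differed by -0.33 against AAV-miR ctrl (exact permutation p = 0.381) and -0.44 against non-injected (p = 0.114), two-sided, with adjusted p of 0.435 and 0.203 over 16 such tests.

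Immunoproteasome subunits were set beside the constitutive ones they replace. The ratio of Psmb8 to Psmb5 CPM was 1.53, 1.29, 0.734 and 1.06 in AAV-miR SOD1 libraries. It was 1.6, 0.524, 0.563, 0.328 and 0.313 in AAV-miR ctrl and 0.516, 0.194, 0.506 and 0.304 in non-injected libraries. Apart from AAV-miR ctrl replicate 1, each control library was below each AAV-miR SOD1 library. The log2 ratio was higher by 1.31 than in both control groups (exact two-sided permutation p = 0.0252, adjusted over 16 tests 0.114). For Psmb9 to Psmb6 the difference was 1.43 (exact p = 0.014, adjusted 0.114). For Psmb10 to Psmb7, the third pair, it was 0.58 (exact p = 0.0615, adjusted 0.169). Without AAV-miR ctrl replicate 1 the differences were 1.54 and 1.64 for the first pairs (exact p = 0.00404 each, adjusted 0.0323) and 0.71 for Psmb10 to Psmb7 (exact p = 0.0121, adjusted 0.0571). That library was singled out after its values were seen. Without it the AAV-miR SOD1 and control ratios of the first pairs separate fully. Their p is thus the smallest that the two-sided test can give and is no separate evidence. Among libraries numbered 1 to 4 the differences were 1.04, 1.13 and 0.49 (adjusted 0.522 each). Both sides of the ratio entered: Psmb5 had a log2 fold change of -0.41 ± 0.17 and Psmb6 of -0.47 ± 0.18 against both control groups (unadjusted p = 0.028 and 0.0217, adjusted 0.171 and 0.153).

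**Figure D3:**
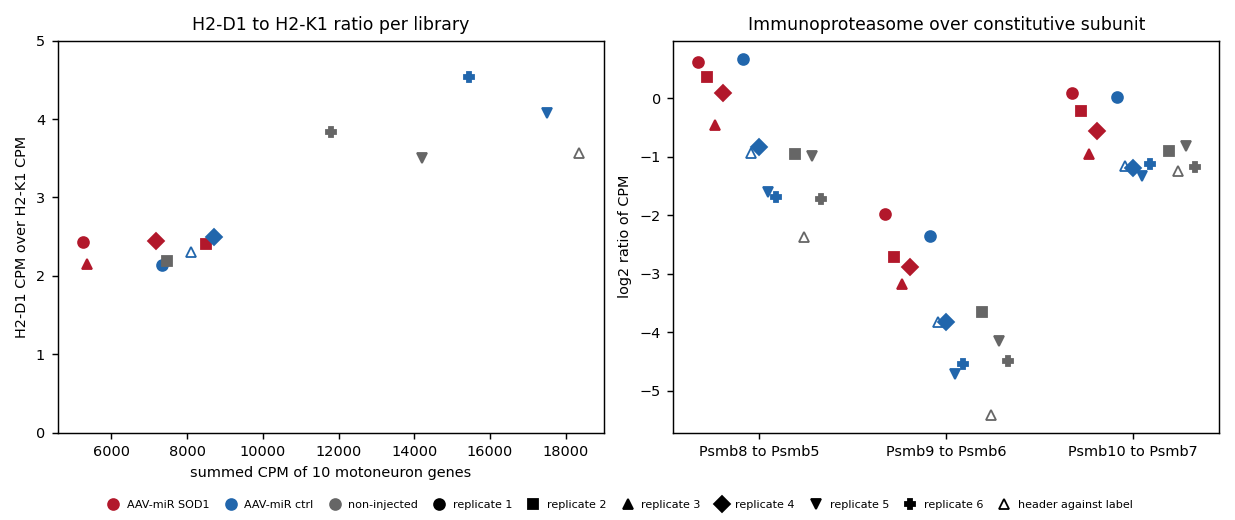
Left, the ratio of H2-D1 to H2-K1 CPM in each library against the summed CPM of 10 motoneuron genes, with 8 libraries between 2.14 and 2.5 and 5 between 3.5 and 4.54. Right, log2 ratios of the 3 immunoproteasome subunits to their constitutive counterparts, where AAV-miR ctrl replicate 1 lies with the AAV-miR SOD1 libraries. Colours are groups, marker shapes replicate numbers.

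The rest of the pathway was read from lists, in AAV-miR SOD1 against both control groups and at an unadjusted p under 0.05, and no gene of any list passed the adjusted test in edgeR. Over all genes tested, 10.2% were higher and 12.1% lower by that threshold. Among other class I heavy chains and relatives, 4 of 16 tested were higher and 0 lower, with a median log2 fold change of 0.30. H2-Q4 was at 1.02 ± 0.35, H2-T23, which encodes the non-classical Qa-1 chain, at 0.76 ± 0.26, and H2-T24 at 0.84 ± 0.30. These genes also resemble each other in sequence, and their counts are uncertain in the same way as that of H2-D1. Against AAV-miR ctrl alone, where 5.99% of all genes were higher, 1 of these 16 was higher. In the lists below that comparison gave 0 of 16 peptide supply, 2 of 21 interferon signalling and 2 of 18 interferon-stimulated genes. It gave 2 of 8 class I receptors, 2 of 10 class II, 3 of 13 microglial, 2 of 8 neutrophil and 8 of 8 erythroid genes. T and NK cell genes numbered 3 of 8 and B lineage genes 0 of 8.

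Of 16 peptide supply and loading genes, 1 was higher and 2 were lower, with a median of -0.06, which is near the 10.2% and 12.1% of all genes. Psme1, a subunit of the interferon-induced proteasome activator, was at 0.66 ± 0.25, and the 2 lower ones were Psmb6 and Psmb5. Of 21 genes of interferon signalling and class I transcription, 6 were higher and 0 lower (median 0.38). Irf9, the DNA-binding subunit of the factor downstream of type I interferon, was at 0.87 ± 0.26, Nfyb, a CCAAT-binding subunit, at 0.36 ± 0.14, and Nfkb1 at 0.60 ± 0.24. Of 18 interferon-stimulated genes, 5 were higher and 0 lower (median 0.70). Rsad2, the antiviral protein viperin, was at 1.91 ± 0.45, Isg15, a ubiquitin-like modifier, at 1.59 ± 0.44, and Irf7 at 1.15 ± 0.40.

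Receptors of class I and linked genes showed 5 of 8 tested genes higher and 0 lower (median 1.24), where 10.2% of all genes were higher. Their summed level differed little, with medians of 141, 140 and 124 CPM in AAV-miR SOD1, AAV-miR ctrl and non-injected libraries. This sum takes in other genes of the list, among them Lrp1, and does not follow the genes named below. Pirb, the most abundant of those, had medians of 23.4, 9.71 and 12.4 CPM in the same order of groups. Klrd1, a natural killer cell receptor chain, was at 1.31 ± 0.42 and stayed under 5 CPM in all libraries. Pirb, a class I receptor of neurons and myeloid cells, was at 1.08 ± 0.37, and Cd247, the zeta chain of the T cell receptor, at 1.42 ± 0.50. Cd247 reached at most 4.22 CPM. Kir3dl1 had no count in any library. MHC class II genes, which mark professional antigen-presenting cells, showed 7 of 10 higher and 0 lower (median 0.87), with H2-Ob at 1.12 ± 0.33, H2-DMb2 at 1.18 ± 0.40 and H2-Eb1 at 0.91 ± 0.31.

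Microglial and blood cell markers were high in the same 5 libraries as the 9 genes. The sum of 13 microglial markers was 1041 to 1405 CPM in AAV-miR SOD1, 640 to 1645 CPM in AAV-miR ctrl (640 to 828 without replicate 1) and 382 to 1016 CPM in non-injected libraries. In this list 6 of 13 were higher against both control groups and 0 lower, against 10.2% and 12.1% of all genes, with Tyrobp, a myeloid signalling adaptor, at 1.00 ± 0.30, Cx3cr1 at 0.83 ± 0.26 and Ctss at 0.81 ± 0.26. Cx3cr1 was at 0.33 ± 0.29 against AAV-miR ctrl and at 1.00 ± 0.30 for AAV-miR ctrl against non-injected. No marker of any cell type list was at 0 in all libraries. In bulk samples such as these, fewer cells of a type and less RNA per cell cannot be told apart.

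Neutrophil granule genes summed to 29298 to 80100 CPM in AAV-miR SOD1, 10418 to 67687 in AAV-miR ctrl (10418 to 19739 without replicate 1) and 14917 to 23706 in non-injected libraries, with 6 of 8 higher and 0 lower, where 10.2% of all genes were higher. Lcn2 was at 1.15 ± 0.35, Camp at 1.18 ± 0.42 and Ltf at 1.02 ± 0.39. Erythroid genes summed to 21085 to 47681, 3585 to 28303 (3585 to 17004 without replicate 1) and 5596 to 20363 CPM, with 8 of 8 higher: Epb42 was at 1.77 ± 0.40 and Slc4a1 at 1.80 ± 0.42. T and NK cell genes summed to 114 to 233, 64.9 to 232 (64.9 to 92.7 without replicate 1) and 49.7 to 107 CPM, with 5 of 8 higher: Lck was at 1.34 ± 0.34, Cd4 at 1.47 ± 0.46 and Cd3g at 1.65 ± 0.54. Cd4 was at 0.51 ± 0.52 against AAV-miR ctrl and at 1.93 ± 0.56 for AAV-miR ctrl against non-injected. B lineage genes summed to 296 to 660, 193 to 495 (193 to 265 without replicate 1) and 68.3 to 292 CPM, with 3 of 8 higher: Cd79b was at 0.99 ± 0.38, Cd79a at 0.92 ± 0.40 and Vpreb3 at 0.89 ± 0.39. Leukocytes express class I genes strongly. In the microglial, neutrophil, erythroid, T and NK cell and B lineage lists, each of the 4 AAV-miR SOD1 libraries and AAV-miR ctrl replicate 1 had a higher sum than each of the other 8 libraries, and the summed CPM of the 9 genes, 3109 to 4180 in those 5 and at most 2764 in the others, separated the libraries in the same way. The interferon-stimulated list, which is no cell type list, split the libraries in the same way. Its sums were 790 to 1418 CPM in AAV-miR SOD1 and 238 to 599 CPM in non-injected libraries. In AAV-miR ctrl they were 268 to 605 CPM without replicate 1, which had 1107 CPM. The part of microglia, blood cells or an interferon response in the members' values was not tested.

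Endothelial genes, from cells that also make class I, showed 0 of 8 higher and 0 lower (Cdh5 0.46 ± 0.31, Kdr 0.33 ± 0.24, Tek -0.26 ± 0.29), with sums of 151 to 291, 144 to 262 and 118 to 248 CPM. Astrocyte genes showed 0 of 8 higher and 1 lower, Aldoc at -0.96 ± 0.24, with S100b at -0.44 ± 0.24 and Gfap at -0.61 ± 0.57. Oligodendrocyte genes showed 0 of 6 in either direction (Mag -0.56 ± 0.33, Mbp -0.54 ± 0.39). Motoneuron genes went the other way from the members, with 10 of 10 lower at an unadjusted p under 0.05, where 12.1% of all genes were lower. Slc5a7, the choline transporter, was at -1.01 ± 0.25, Chat at -0.91 ± 0.24 and Slc18a3 at -1.24 ± 0.39. The motoneuron sums were 5235 to 8495 CPM in AAV-miR SOD1, 7340 to 17517 in AAV-miR ctrl and 7469 to 18350 in non-injected libraries.

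**Figure D4:**
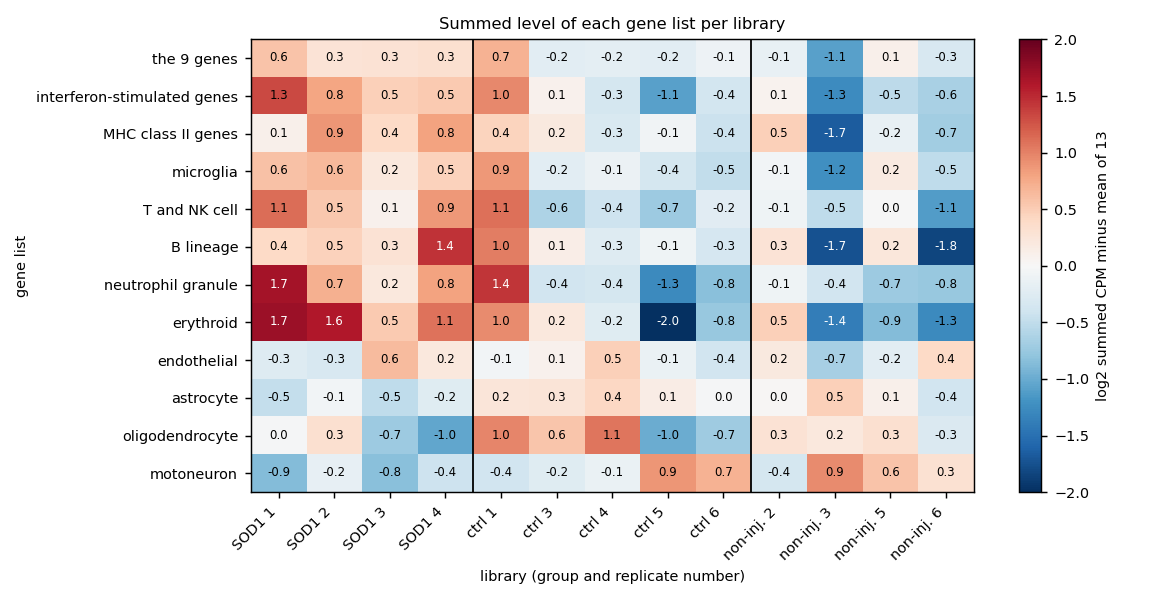
Summed CPM of each gene list per library (rows are lists, columns are libraries by group and replicate), as log2 difference from the mean of the 13 libraries. The 9 genes are high in the 4 AAV-miR SOD1 libraries and in AAV-miR ctrl replicate 1 and lowest in non-injected replicate 3, and the interferon-stimulated, microglial and neutrophil rows are also above their means in those 5 libraries.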

How the data were processed

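Deposited values were raw read counts per Ensembl gene, 1 table for each of 13 libraries. The submitters' processing notes name cutadapt 1.8, STAR 2.5.2b, HTSeq 0.6.1 and GRCm38, while annotation, strand setting and read length are not given in the sources used here. Summary rows of unassigned reads were left out of library sizes. Symbols came from GENCODE M21 (GRCm38), which named 48349 of 48709 identifiers. Each library is 1 mouse per the labels' protocols. Groups came from the titles.

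Genes were kept by filterByExpr (minimum count 10, total 15; 17403 genes), scaled by TMM and tested in edgeR 4.0.16 (R 4.3.3) with the quasi-likelihood F test on all 13 libraries, with Benjamini-Hochberg adjustment over all genes and a threshold of 0.05. The SE is the fold change over the root of F. Log2 CPM used a prior count of 2. CPM per kb used the union of exons. Ratios were tested by exact two-sided permutation (scipy 1.17.1). The scripts were tested on simulated data. DESeq2 1.42.0, limma 3.58.1 (voom), other scalings, no filter, a replicate block, header exchange and leaving out libraries were alternatives.

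The members and lists were chosen with earlier results of these data known. All 9 members were named, then from each other list up to 3 genes with the smallest p against both control groups, and the 5 genes outside the lists closest to the members' mean pattern; a few genes this rule names are not reported here. Of the listed symbols, Nrdc and Lilrb3 were not matched.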

Additional observations from a re-analysis of the deposited data

Results flagged for a closer look

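In 4 of 30 checks of a gene or ratio within a group, 1 library lay apart from the rest of its group by Dixon's criterion, which chance alone gives in about 1 of 20. The checks share libraries and the genes vary together, so the count cannot show an excess over that share. H2-K1 in AAV-miR ctrl replicate 1 had a log2 CPM of 9.37, with the next library at 8.32. Tapbp in non-injected replicate 3, a library whose header contradicts its label, had a log2 CPM of 6.26, with the next at 7.01. The log2 ratio of H2-D1 to H2-K1 was 1.10 in AAV-miR SOD1 replicate 3, with the next at 1.27, and the 4 libraries of that group span a narrow range. The same log2 ratio was 1.13 in non-injected replicate 2, with the next at 1.81, and the other 3 non-injected libraries have the higher motoneuron marker sums.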

How the results depend on the processing

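Over 23 alternatives, 793 of 819 fold changes of the 9 genes kept their direction and side of the threshold, 13 passed it and 13 changed sign. Group levels were recomputed only with a prior count of 0.5 and with unscaled library totals, with no library left out or relabelled. There 54 of 54 moved by less than the spread between replicates. The sign changes were all in AAV-miR ctrl against non-injected and near 0. Tap2 was at 0.01 with RLE scaling and with DESeq2, 0.03 with upper quartile scaling, 0.10 with the replicate block, 0.20 with libraries numbered 1 to 4, and between -0.22 and 0.13 when single libraries were left out. Tapbp was at -0.15 with the headers' groups and between 0.00 and 0.27 with single libraries left out. The log2 ratio of H2-D1 to H2-K1 was 0.03 against AAV-miR ctrl with libraries numbered 1 to 4, and 0.01 for AAV-miR ctrl against non-injected without AAV-miR ctrl replicate 1, where Psmb10 to Psmb7 was -0.16. The cause was not tested.

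Members at an unadjusted p under 0.05 against AAV-miR ctrl, 0 in edgeR, were 1 with upper quartile scaling, 1 without a filter, 2 with DESeq2, 6 with limma-voom, 3 with the headers' groups, 1 without those 2 libraries and 0 to 6 with single libraries left out. Against non-injected, 7 became 3 with the headers' groups, 4 without the 2 libraries and 3 to 8 with single libraries left out, the lowest without non-injected replicate 3. AAV-miR ctrl against non-injected gave 0 to 1. Against both control groups, 7 became 4 with the headers' groups, 4 without the 2 libraries, 2 with libraries numbered 1 to 4, and 1 to 7 with single libraries left out, the lowest without AAV-miR SOD1 replicate 1. Members past the adjusted threshold were 1 with DESeq2 against non-injected. Against both control groups they were 1 with DESeq2, 6 with limma-voom and 0 to 5 with single libraries left out. Shares of all genes are given above for some of these settings only. The other counts show only how the result depends on the setting.

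Replicate numbers are shared between groups, but same-numbered libraries did not deviate together in every pair (r from -0.19 to 0.24), so they were not taken as pairs. With the replicate block the counts at an unadjusted p under 0.05 were 1 against AAV-miR ctrl, 2 against non-injected and 4 against both, where 5.41%, 4.96% and 6.40% of all genes were higher. Depth limits Nlrc5 most, with 9 to 198 reads per library.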
